A study of Ovis aries with 32 samples.

Results

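The comparison described here asks whether the transcriptional response of the ovine middle cerebral artery (MCA) to phenylephrine (PHE) differed between newborn lambs and premature fetuses. Its members were chosen because their arrays were scanned on a single day, and they make up 16 of the 32 arrays of the series. The study placed MCA segments of sheep of several ages in Krebs buffer, exposed some of them to 10 µM PHE for 30 min, and hybridised their RNA to Agilent sheep arrays. The 4 groups used here were untreated and PHE-treated segments of premature fetuses at 96 days of gestation, and untreated and PHE-treated segments of newborn lambs, with 4 arrays in each. The series design states 4 animals per experiment and a single fetus from any twin pair. Sample labels give the newborn lambs an age of 12 hours and the series design gives 5 days.

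Phenylephrine acts on alpha-1 adrenergic receptors, which couple through Gq proteins to calcium release, protein kinase C and MAP kinases. These pathways induce immediate-early transcription factors, then cytokines, chemokines and the inhibitors that end the response. Cerebral arteries mature around birth in their contractile proteins and in their hormonal setting.

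Values below are log2 intensities relative to each array's 75th percentile. A PHE effect is the treated group mean minus the untreated group mean at the same age, and the age difference is the newborn PHE effect minus the premature PHE effect. A negative age difference therefore marks a smaller rise, or a larger fall, in newborn arteries. A difference was called at a limma adjusted p under 0.05 with at least a 1.5-fold size. On each array 63.7 to 71.2% of the probes were well above background, and the number of arrays limits the precision, with a median standard error of 0.23 for the age difference.

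The arteries of both ages responded to PHE with many of the same genes. In premature arteries 3029 of 10332 probes changed (29.3%), 1535 upward and 1494 downward, and in newborn arteries 2153 changed (20.8%), 1109 upward and 1044 downward. With pairing these shares were 31.5% and 23.5%. The 1692 probes called at both ages were 55.9% of the premature and 78.6% of the newborn calls; 924 rose at both ages, 764 fell at both and 4 moved in opposite directions. Across probes, which are not independent replicates, the 2 effects correlated with r = 0.869.

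The age difference itself was called for 93 of 10332 probes (0.900%). The PHE effect was lower in newborn arteries for 76 of them (0.736%) and higher for 17 (0.165%). Among the 2421 probes with a gene symbol, 66 were called (2.73%), beside 60.6% for the premature and 49.9% for the newborn PHE effect. The age difference had an unadjusted p under 0.05 for 1508 of all probes (14.6%) and 620 of those with a symbol (25.6%), and 774 (7.49%) and 420 (17.3%) passed a test with unequal variances, unadjusted. With adjustment that test, which also takes same-numbered arrays of an age as pairs, called 0. The gene lists below hold only genes with a symbol. With same-numbered arrays of an age taken as pairs in limma, 361 probes were called (3.49%), 248 lower and 113 higher, and 92 of the 93 were among them. The count depended on processing: it was 9 with another background correction, 53 with median scaling (19 higher and 34 lower), 49 without a signal filter, 182 with array weights, and 2 when all 32 arrays entered the fit. Of the 41 called features named below, 34 lost the call with that background correction and 2 reversed, and 40 lost it with all 32 arrays. Omission of a single array gave 58 calls without newborn untreated array 3, 54 without newborn PHE array 1, 46 without newborn PHE array 2, 44 without premature untreated array 1, 47 without premature untreated array 3, 46 without premature untreated array 4 and 43 without premature PHE array 3.

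**Figure D1:**
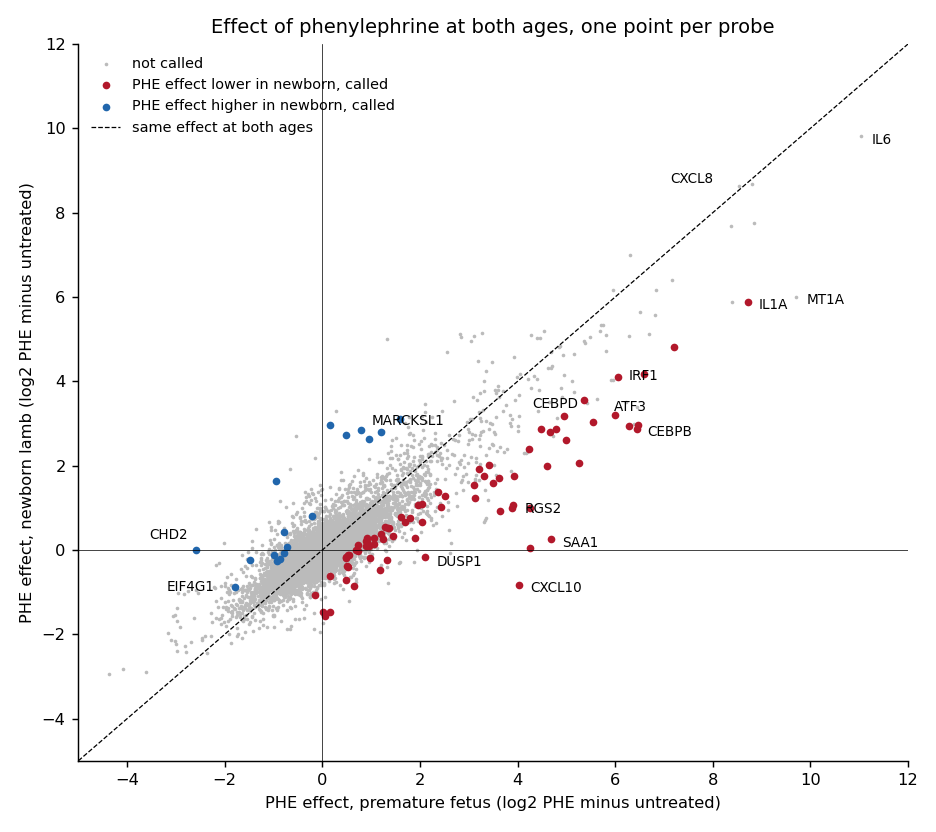
Each point is a probe, with its PHE effect in premature arteries on the x axis and in newborn arteries on the y axis, both in log2. Probes with a called age difference are coloured, 76 with the lower effect in newborn arteries and 17 with the higher.

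The 76 probes with a lower effect in newborn arteries were mostly PHE-induced genes. PHE raised 38 of them at both ages and 25 in a called manner only in premature arteries, while 6 fell with a call only in newborn arteries. Their median PHE effect was 2.04 in premature and 0.67 in newborn arteries. Untreated newborn arteries held more of 39 of them than untreated premature arteries did and less of 0, by limma's call, while PHE-treated newborn arteries held less of 34 and more of 2. Over all 10332 probes, 12.8% were called higher and 10.9% lower in untreated newborn arteries and 12.6% and 11.8% in treated ones, and since the 76 were selected by a contrast of these same levels, their counts are not separate evidence. Among the 133 probes whose mean PHE effect over the ages was at least 3, called or not, 95 (71.4%) had a negative age difference, with a median of -0.50 (73 probes and -0.15 with another background correction), against 5098 of all 10332. For mean rises of 1 to 2 and of 2 to 3 the medians were -0.26 and -0.25, which turned to 0.24 and 0.11 with that correction. For mean falls of 1 to 2 (338 probes) and of 2 to 3 (20 probes), 97 (28.7%) and 2 (10%) had a negative age difference, with medians of 0.25 and 0.68, or 25 (7.4%) and 0 with that correction, with medians of 0.60 and 1.06, beside 0.19 for all probes.

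The transcription factors of the C/EBP and ATF families included the smallest adjusted p of the 93 probes. These bZIP factors are induced by stress kinases and cytokines and drive acute-phase and inflammatory genes. CEBPB measured -4.87, -4.88, -4.86 and -4.70 in untreated and 1.55, 1.77, 1.94 and 1.19 in PHE-treated premature arteries. In newborn arteries it measured -2.06, -1.86, -1.66 and -1.67 untreated and 1.01, 0.90, 0.98 and 1.31 after PHE. The untreated groups did not overlap, newborn being higher, while the treated groups did. PHE raised CEBPB by 6.44 in premature and 2.86 in newborn arteries, an age difference of -3.58 (SE 0.21, adjusted p 3.82e-07). In 2 of 4 untreated premature arrays its signal was not well above background, and with low values raised to the floor of each array, its weakest signal still marked well above background, the difference was -3.57. The call was lost with another background correction (adjusted p 0.566), with all 32 arrays and by adjusted tests with unequal variances. Over alternatives other than that last test, limma's adjusted p ran from 2.33e-08 to 0.566.

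CEBPD, a partner of CEBPB, gave 0.30, 0.19, -0.07 and 0.09 in untreated and 5.76, 5.70, 5.91 and 5.35 in PHE-treated premature arteries. Newborn arteries gave 2.35, 2.59, 3.22 and 2.72 untreated and 5.45, 5.78, 5.64 and 6.15 after PHE. All 4 untreated newborn arrays were above all 4 untreated premature arrays, and the treated groups overlapped. The CEBPD effects were 5.55 and 3.04, with an age difference of -2.52 (SE 0.26, adjusted p 0.00032), which was also called with all 32 arrays in the fit. CEBPG, chosen after its values were seen, rose by 2.44 in premature and 1.02 in newborn arteries, a difference of -1.41 (adjusted p 0.0273), and was called in 10 of the 16 fits that left out an array (range -1.55 to -1.29, adjusted p 0.0181 to 0.07).

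ATF3 measured -2.70, -1.89, -2.18 and -3.73 in untreated and 3.89, 3.42, 4.31 and 2.99 in PHE-treated premature arteries. Its newborn values were 0.38, -1.23, 0.51 and 1.58 untreated and 2.60, 3.46, 3.28 and 3.71 after PHE. Untreated newborn arrays were all above the untreated premature arrays and varied widely, and the treated groups overlapped. ATF3 rose by 6.28 and 2.95, an age difference of -3.33 (SE 0.72, adjusted p 0.0472) that was called in 3 of the 16 fits with an array left out (range -3.84 to -2.90, adjusted p 0.00966 to 0.108). ATF4, which acts upstream of ATF3 in the integrated stress response, rose by 1.87 and 1.22, and its difference of -0.65 had an adjusted p of 0.0991, or 0.0428 with pairing (0.0114 to 0.992 over alternatives).

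AP-1 and EGR immediate-early genes are the textbook targets of MAP kinase signalling. Of the 9 AP-1 and ATF genes measured, 5 carried a name from the study's own list of altered genes, which was drawn from these same samples and is not independent evidence. In the lists below, so did 13 of 15 EGR, NR4A and KLF genes and 11 of 11 MAP kinase feedback genes. The same held for 14 of 17 NF-kB genes and 17 of 20 stress genes. All 9 AP-1 and ATF genes had a negative age difference, 1 of them called lower and 0 higher by limma (4 lower with pairing), with 6 at an unadjusted p under 0.05 and 4 by the test with unequal variances. Their median was -0.67, beside 0.00 for all probes, and -0.90 with another background correction, beside 0.19. With that correction limma called 1 gene each in the NF-kB and Gq lists and 0 in the other lists, and with median scaling it called 0 in the AP-1, EGR, MAP kinase and stress lists and 1 in the NF-kB list. Low values raised gave 3 calls for cytokines, 2 for chemokines, 2 for JAK and STAT genes and 1 for Gq genes, and quantile scaling gave 2 for AP-1 and 2 for JAK and STAT genes. JUNB rose by 5.91 in premature and 4.03 in newborn arteries, and its difference of -1.88 had an adjusted p of 0.0893, or 0.0427 with pairing and 0.0159 without newborn untreated array 2 (0.0115 to 0.395 over alternatives). Another JUNB probe differed by -2.41 (adjusted p 0.0484), and a further JUNB probe by -1.91 without a call (adjusted p 0.0815, or 0.0379 with pairing). FOSL2 rose by 2.85 and 1.66, a difference of -1.19 with an adjusted p of 0.147, or 0.0284 with pairing (0.015 to 1 over alternatives). FOS rose by 4.12 and 2.29, with a difference of -1.83 at an adjusted p of 0.487. CREM rose by 6.83 and 6.17, with a difference of -0.67 at an adjusted p of 0.252.

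EGR1 measured -2.84, -2.83, -2.89 and -2.83 in untreated and 1.22, 1.11, 1.19 and 0.76 in PHE-treated premature arteries. Newborn arrays gave -2.15, -2.84, -1.53 and -0.91 untreated and -0.55, -0.22, 0.35 and 0.05 after PHE. The untreated groups overlapped and the treated groups did not, with every premature array above every newborn array. EGR1 rose by 3.92 and 1.76, an age difference of -2.15 (SE 0.43, adjusted p 0.0321). This call held in 6 of the 16 fits that left out an array (range -2.48 to -1.84, adjusted p 0.0037 to 0.0784), and 2 of 3 EGR1 probes were called. Of the 15 EGR, NR4A and KLF genes measured, 2 were called lower and 0 higher by limma (4 lower with pairing), with a median of -0.81 (-0.40 with another background correction), 8 at an unadjusted p under 0.05 and 6 by the test with unequal variances.

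NR4A1 rose by 6.21 in premature and 3.51 in newborn arteries, and the difference of -2.70 had an adjusted p of 0.0945. It was called with pairing (adjusted p 0.038) and without newborn untreated array 2 (0.0239) (0.0114 to 0.566 over alternatives). IER3 rose by 3.13 and 1.69, a difference of -1.43 with an adjusted p of 0.0738, or 0.0221 with pairing and 0.00716 without premature PHE array 1 (0.00521 to 0.615 over alternatives). MYC, KLF4 and BHLHE40 rose by nearly the same amount at both ages, with age differences of -0.16, 0.13 and 0.06.

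KLF9 of this family stood apart in its basal level. It measured -4.55, -5.04, -4.70 and -4.09 in untreated and -2.77, -2.89, -2.18 and -2.39 in PHE-treated premature arteries, against -0.32, -0.23, -0.04 and -0.57 and then 0.44, 0.39, 0.50 and 0.15 in newborn arteries. All 8 newborn arrays were above all premature arrays. KLF9 rose by 2.04 and 0.66, an age difference of -1.38 (adjusted p 0.0346) that was called in 5 of the 16 fits with an array left out (range -1.55 to -1.23, adjusted p 0.0179 to 0.0784) and turned to 0.24 with another background correction. FKBP5 and TSC22D3 were higher in untreated newborn arteries by 3.96 and 1.02, in a list of 10 mRNA decay and glucocorticoid-induced genes of which 3 were called higher and 2 lower there. FKBP5 rose by 0.98 in premature arteries and changed by 0.10 in newborn arteries, and its difference of -0.88 had an adjusted p of 0.109. TSC22D3 rose by 1.22 in premature arteries against 0.49, a difference of -0.73 with an adjusted p of 0.118, or 0.026 with pairing (0.0101 to 1 over alternatives).

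**Figure D2:**
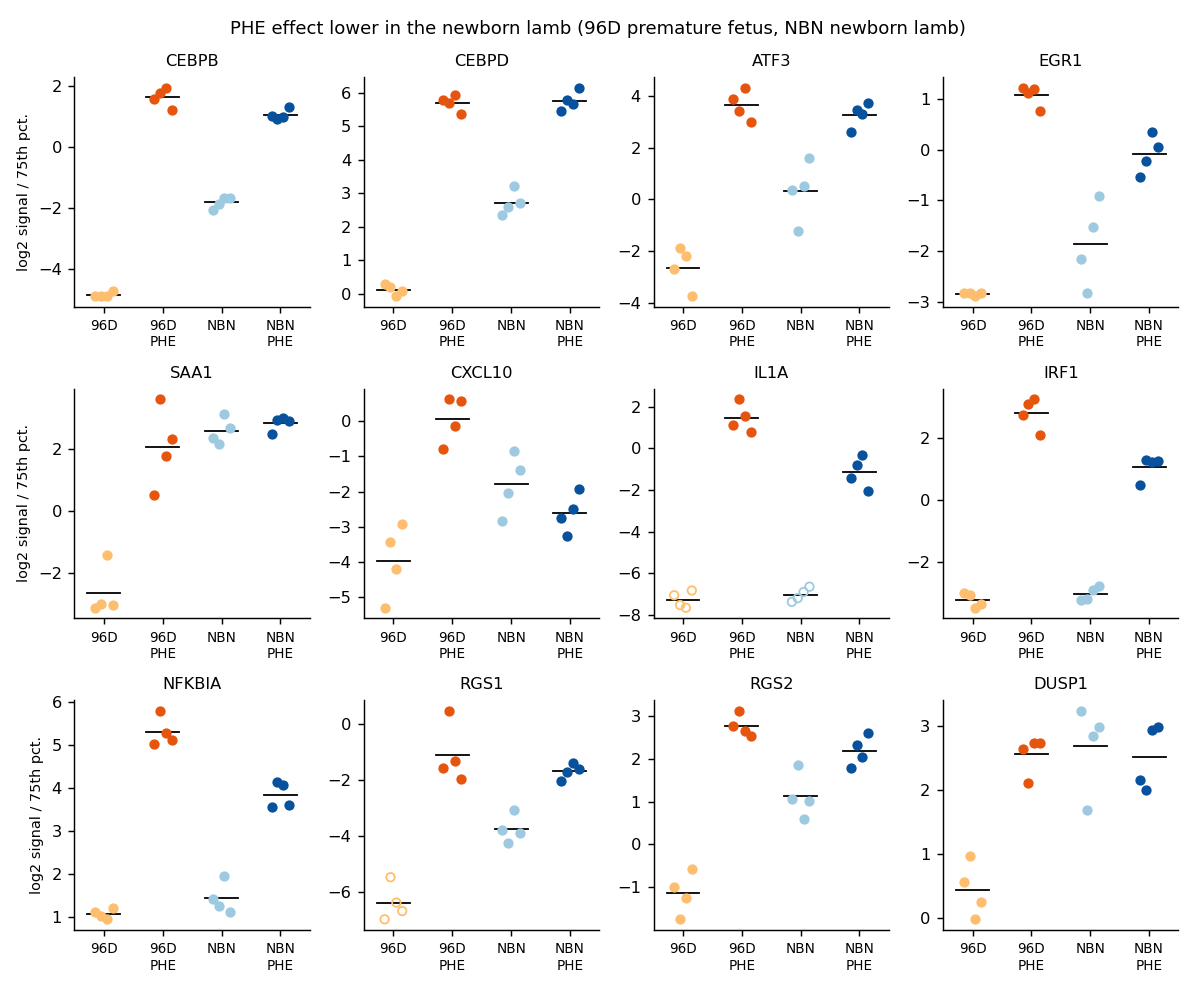
Log2 values of 12 genes in each array of the 4 groups, with lines at the group means and open circles where no array of a group was well above background. In CEBPB the untreated newborn arrays lie between -2.06 and -1.66, above the untreated premature arrays at -4.88 to -4.70.

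Inflammatory ligands were among the genes PHE induced to the greatest extent at either age. CXCL10, an interferon-inducible chemokine, measured -5.31, -3.42, -4.20 and -2.93 in untreated and -0.79, 0.63, -0.13 and 0.57 in PHE-treated premature arteries. In newborn arteries it measured -2.84, -2.03, -0.84 and -1.38 untreated and -2.76, -3.26, -2.50 and -1.92 after PHE. Untreated newborn arrays were all higher than untreated premature arrays, and treated newborn arrays were all lower than treated premature arrays. CXCL10 rose by 4.03 in premature arteries and had a newborn effect of -0.83, which was called only with pairing (adjusted p 0.025). The age difference of -4.87 (SE 0.72, adjusted p 0.00663) was the largest of the 93. CCL4L1 rose by 8.39 and 5.87, and its difference of -2.52 had an adjusted p of 0.0867, or 0.00514 with pairing and 0.0459 without newborn untreated array 4 (0.00389 to 1 over alternatives). CCL5 rose by 2.61 in premature arteries against -0.07 in newborn arteries, with a difference of -2.69 at an adjusted p of 0.251, or 0.0322 with pairing.

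IL1A measured -7.05, -7.52, -7.65 and -6.82 in untreated and 1.11, 2.37, 1.57 and 0.79 in PHE-treated premature arteries, and -7.37, -7.19, -6.90 and -6.64, then -1.42, -0.82, -0.31 and -2.03, in newborn arteries. Neither untreated group was well above background on any array, and they overlapped, whereas every treated premature array was above every treated newborn array. Folds against such a group are lower bounds, taken from its mean after its low values were raised to the floor. IL1A rose at least 95.1-fold in premature and at least 12.4-fold in newborn arteries. Its age difference was -2.84 (adjusted p 0.0169), or -2.94 with low values raised, and 2 of 2 probes were called. The newborn minus premature difference was -2.60 in treated arteries.

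IL6 rose at least 1123-fold in premature and at least 363-fold in newborn arteries. Its age difference was -1.23 (adjusted p 0.182), or -1.63 (adjusted p 0.0255) with low values raised (0.0255 to 1 over alternatives), and treated newborn arrays at 3.40, 3.82, 3.89 and 3.80 were all below treated premature arrays at 4.71, 5.68, 4.98 and 4.73. IL1B was well above background on 1 of 4 untreated premature and 0 of 4 untreated newborn arrays and rose at both ages, at least 152-fold in newborn arteries, with an age difference of -1.09 (adjusted p 0.247), or -1.44 (adjusted p 0.0662) with low values raised (0.0652 to 1 over alternatives). CXCL8 rose by 8.53 and 8.63, with an age difference of 0.09, and of -0.12 at its other probe. CXCL1 and CXCL16 rose at both ages, with differences of -0.95 and -1.15 at adjusted p of 0.126 and 0.184. CSF3 ran the other way, rising at least 9.33-fold in newborn arteries with a premature effect of 1.33, but its difference of 3.66 had an adjusted p of 0.119, or 0.0275 with low values raised (0.0227 to 1 over alternatives). Its other probe, not well above background on any untreated array, was called as a rise at both ages, with an age difference of 2.20 (adjusted p 0.056).

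Of the 10 cytokine genes measured, 9 had a negative age difference, with 1 called lower and 0 higher by limma, 4 at an unadjusted p under 0.05 and 3 by the test with unequal variances, and a median of -0.66 (-0.64 with low values raised and -0.03 with another background correction). Of the 9 chemokine genes 7 were negative, with 1 called lower and 0 higher by limma (3 lower with pairing), 6 at an unadjusted p under 0.05 and 5 by the test with unequal variances, and a median of -0.95 (-0.61 with another background correction).

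SAA1, an acute-phase apolipoprotein and C/EBP target, measured -3.11, -3.0, -1.39 and -3.01 in untreated and 0.54, 3.62, 1.78 and 2.32 in PHE-treated premature arteries. The newborn arrays read 2.38, 2.17, 3.14 and 2.71 untreated and 2.51, 2.95, 3.02 and 2.92 after PHE. The untreated groups lay far apart, by 5.23, and the treated groups overlapped. SAA1 rose by 4.69 in premature arteries and had a newborn effect of 0.25, an age difference of -4.44 (SE 0.72, adjusted p 0.0112). SELP, an endothelial adhesion gene, rose by 4.65 and 3.51, with a difference of -1.14 at an adjusted p of 0.309, and ICAM1 rose by 3.95 and 3.56.

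The inhibitors of NF-kB limit the inflammatory response that induces them. NFKBIA measured 1.1, 1.02, 0.94 and 1.19 in untreated and 5.02, 5.80, 5.27 and 5.11 in PHE-treated premature arteries. Newborn arteries measured 1.42, 1.25, 1.95 and 1.12 untreated and 3.56, 4.13, 4.06 and 3.60 after PHE. The untreated groups overlapped, and every treated newborn array was below every treated premature array. NFKBIA rose by 4.24 and 2.40, an age difference of -1.83 (SE 0.28, adjusted p 0.00921). NFKBIZ rose by 5.37 and 3.56, a difference of -1.81 (adjusted p 0.0444) that was called in 2 of the 16 fits with an array left out (range -2.08 to -1.60, adjusted p 0.0122 to 0.095).

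IKBKB rose by 2.54 and 1.95, and its difference of -0.59 had an adjusted p of 0.0773, or 0.0348 without premature PHE array 4 (0.00993 to 1 over alternatives). Another IKBKB probe rose by 0.77 in premature arteries without a call in newborn arteries (0.28), with a difference of -0.48 (adjusted p 0.402). NFKB2 rose by 2.11 and 1.28, with a difference of -0.82 at an adjusted p of 0.103. RELB rose by 4.04 and 3.19, BIRC3 by 2.81 and 2.08, and CD83 by 5.37 and 4.96, each without a call for the difference. Of the 17 NF-kB genes measured, 14 were named by the study's list of genes altered by PHE, so the count that rose was largely set by that choice. Of the 17, 16 rose at each age and 15 had a negative age difference, with 2 called lower and 0 higher by limma (3 lower with pairing), 9 at an unadjusted p under 0.05 and 7 by the test with unequal variances, and a median of -0.59 (-0.63 with low values raised and -0.25 with another background correction).

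IRF1, which carries interferon and NF-kB signals to CXCL10, measured -3.02, -3.08, -3.50 and -3.38 in untreated and 2.76, 3.09, 3.26 and 2.11 in PHE-treated premature arteries. In newborn arteries it measured -3.25, -3.22, -2.91 and -2.80 untreated and 0.47, 1.30, 1.23 and 1.26 after PHE. The untreated groups overlapped and the treated groups did not, premature being higher. IRF1 rose by 6.05 and 4.11, an age difference of -1.94 (SE 0.34, adjusted p 0.0143). The interferon-stimulated genes MX1, MX2 and ISG15 were called at neither age. OSMR rose by 2.73 and 1.35, and its difference of -1.38 had an adjusted p of 0.056, or 0.0209 with pairing, 0.026 at its lowest when newborn untreated array 1 or newborn PHE array 4 was left out (0.00387 to 1 over alternatives).

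CISH, a STAT5 target, went the other way, rising by 0.95 and 2.16, with a difference of 1.22 at an adjusted p of 0.0668, or 0.0388 without premature PHE array 1 (0.011 to 1 over alternatives). SOCS3 rose by 4.53 and 5.19, SOCS2 by 1.91 and 1.79, and IL6ST by 1.96 and 1.14, the last with a difference of -0.83 at an adjusted p of 0.104. Of the 15 JAK and STAT genes measured, 9 had a negative difference, with 1 called lower and 0 higher by limma (2 lower with pairing), 7 at an unadjusted p under 0.05 and 5 by the test with unequal variances, and their median of -0.24 became 0.06 with another background correction.

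Gq signalling and its brakes are the step nearest the receptor. RGS2, which accelerates GTP hydrolysis on Gq, measured -0.99, -1.75, -1.26 and -0.58 in untreated and 2.77, 3.12, 2.65 and 2.54 in PHE-treated premature arteries. Newborn arteries measured 1.06, 1.84, 0.59 and 1.02 untreated and 1.79, 2.33, 2.04 and 2.60 after PHE. The untreated newborn arrays were all above the untreated premature arrays, and the treated groups overlapped. RGS2 rose by 3.92 and 1.06, an age difference of -2.86 (SE 0.39, adjusted p 0.00266), called for 2 of 2 probes.

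RGS1 measured -6.96, -5.46, -6.37 and -6.67 in untreated premature arteries, not well above background on any array, and -1.57, 0.46, -1.34 and -1.96 after PHE. Newborn arrays gave -3.78, -4.26, -3.08 and -3.89 untreated and -2.04, -1.71, -1.41 and -1.62 after PHE, and only the treated groups overlapped. RGS1 rose at least 16.1-fold in premature arteries and by 2.06 in newborn arteries. Its age difference of -3.21 (adjusted p 0.027) became -1.95 (adjusted p 0.101) with low values raised (0.000793 to 0.808 over alternatives), and it was called in 9 of the 16 fits with an array left out (range -3.51 to -2.69, adjusted p 0.0178 to 0.0697). RCAN1, a calcineurin target, rose by 2.72 and 2.61, and RGS3 was called only with pairing in newborn arteries (-0.59, adjusted p 0.0393). Of the 4 genes of this list measured, none of them an adrenergic receptor, 2 were called lower and 0 higher by limma, 2 had an unadjusted p under 0.05 and 2 passed the test with unequal variances, with a median of -1.48 (-1.03 with low values raised and -0.37 with another background correction).

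MAP kinase feedback genes switch off the kinases that induce them. DUSP1 measured 0.57, 0.97, -0.01 and 0.25 in untreated and 2.64, 2.11, 2.73 and 2.73 in PHE-treated premature arteries. In newborn arteries it measured 3.24, 1.69, 2.85 and 2.98 untreated and 2.16, 2.00, 2.94 and 2.98 after PHE. Untreated newborn arrays were thus already at the level of treated premature arrays, apart from the array at 1.69. DUSP1 rose by 2.11 in premature arteries and had a newborn effect of -0.17, an age difference of -2.28 (adjusted p 0.0335) that was called in 5 of the 16 fits with an array left out (range -2.61 to -2.10, adjusted p 0.00435 to 0.0822).

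ERRFI1, an inhibitor of EGF receptor signalling, measured 0.79, 0.72, 0.46 and 0.70 in untreated and 4.89, 5.46, 5.49 and 5.45 in PHE-treated premature arteries, and 2.34, 2.04, 2.88 and 2.44, then 5.27, 5.08, 5.15 and 5.44, in newborn arteries. The untreated groups did not overlap and the treated groups did. ERRFI1 rose by 4.65 and 2.81, an age difference of -1.85 (SE 0.24, adjusted p 0.00266). MAPKAPK2, chosen after its values were seen, rose by 1.37 against 0.53, a difference of -0.84 (adjusted p 0.0414), called in 3 of the 16 fits with an array left out (range -0.94 to -0.78, adjusted p 0.0181 to 0.0983).

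MAP3K14 differed by -0.87 at an adjusted p of 0.113. SPRY2, SPRY4 and DUSP4 rose at both ages, with differences of -0.51, -0.90 and -0.43. Of the 11 genes of this list measured, 9 had a negative difference, with 2 called lower and 0 higher by limma (3 lower with pairing), 5 at an unadjusted p under 0.05 and 6 by the test with unequal variances, and a median of -0.68 (-0.04 with another background correction).

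Of the 20 genes measured in the stress list, 1 was called with a smaller rise in newborn arteries, DDIT4. PPP1R15A and CHAC1 are outside that list and were named for the size of their age differences. PPP1R15A, which reverses the translational block of the integrated stress response, measured -6.53, -5.66, -5.11 and -6.44 in untreated premature arteries, not well above background on any array, and -1.5, -1.62, -1.21 and -2.42 after PHE. Newborn arteries measured -3.81, -3.67, -2.84 and -2.47 untreated and -2.58, -2.74, -1.67 and -1.84 after PHE. The untreated groups did not overlap and the treated groups did. PPP1R15A rose at least 10.1-fold in premature arteries and had a newborn effect of 0.99 that was called only with pairing (adjusted p 0.00214). Its age difference was -3.26 (adjusted p 0.0122), or -2.35 (adjusted p 0.0255) with low values raised (0.00023 to 0.854 over alternatives).

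CHAC1, an ATF4 target, measured -2.10, -2.09, -2.27 and -1.76 in untreated and 3.78, 4.38, 4.26 and 3.37 in PHE-treated premature arteries, and -1.33, -1.46, -1.10 and -0.69, then 3.18, 1.37, 2.96 and 0.76, in newborn arteries. No treated newborn array reached the lowest treated premature array. CHAC1 rose by 6.0 and 3.21, an age difference of -2.79 (adjusted p 0.0474), called in 4 of the 16 fits with an array left out (range -3.16 to -2.35, adjusted p 0.023 to 0.108). DDIT4 rose by 3.62 and 1.71, a difference of -1.91 (adjusted p 0.0484), called in 2 of those 16 fits (range -2.14 to -1.64, adjusted p 0.0276 to 0.108) and for 1 of 2 probes.

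MT1A, a metallothionein, measured -4.54, -3.95, -4.64 and -4.24 in untreated and 5.12, 5.01, 5.60 and 5.67 in PHE-treated premature arteries. The newborn arrays read -2.34, -0.87, 2.57 and 1.13 untreated and 6.08, 5.51, 6.13 and 6.76 after PHE. The untreated newborn arrays spread from -2.34 to 2.57, all above the untreated premature arrays, and the treated groups overlapped. MT1A rose by 9.69 and 6.0, and its difference of -3.70 (SE 1.02) had an adjusted p of 0.103. It was called with pairing (adjusted p 0.0469) and without newborn untreated array 1 (0.0184) (0.0137 to 0.566 over alternatives).

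HSPH1 rose by 3.33 and 1.41, with a difference of -1.92 at an adjusted p of 0.0815, or 0.0285 without premature PHE array 2 (0.0129 to 1 over alternatives). HSPA1A rose by 3.33 in premature arteries against 0.70, with a difference of -2.63 at an adjusted p of 0.143. DNAJB5, DNAJB6 and HERPUD1 were chosen after their values were seen. DNAJB5 rose by 1.33 in premature arteries against -0.25, a difference of -1.58 (adjusted p 0.0143), DNAJB6 rose by 2.05 and 1.08, a difference of -0.97 (adjusted p 0.0169), and HERPUD1 rose by 1.96 and 1.06, a difference of -0.89 (adjusted p 0.0154). GADD45A went the other way, rising by 2.09 and 3.46, with a difference of 1.37 at an adjusted p of 0.0952, or 0.0492 without newborn untreated array 4 (0.0183 to 1 over alternatives). Of the 20 stress genes measured, 17 had a negative difference, with 1 called lower and 0 higher by limma (4 lower with pairing), 13 at an unadjusted p under 0.05 and 8 by the test with unequal variances, and a median of -0.86 (-0.71 with another background correction).

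PLK3, a stress-activated polo-like kinase, measured -3.80, -3.18, -3.72 and -3.56 in untreated and -0.72, -0.01, -0.40 and -0.72 in PHE-treated premature arteries, and -3.10, -3.54, -3.50 and -3.42, then -1.76, -2.19, -1.54 and -1.90, in newborn arteries. The untreated groups overlapped and the treated groups did not, premature being higher. PLK3 rose by 3.1 and 1.54, an age difference of -1.56 (SE 0.26, adjusted p 0.0127), called for 2 of 2 probes. CDKN1A rose by 6.29 and 5.07, with a difference of -1.22 at an adjusted p of 0.272. PLK2 had effects of -0.51 and 0.90, the latter called only with pairing (adjusted p 0.00214), and its difference of 1.41 had an adjusted p of 0.279, or 0.0209 with pairing (0.0209 to 1 over alternatives). CCNB2 rose by 1.77 and 1.23, with a difference of -0.54 at an adjusted p of 0.39. Of the 7 cell-cycle genes measured, 1 was called lower and 0 higher by limma (1 and 1 with pairing), 3 had an unadjusted p under 0.05 and 2 passed the test with unequal variances, and the median of -0.04 became 0.07 with median scaling and -0.26 with another background correction.

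The following genes were chosen after their values were seen. IFRD1 rose by 4.48 and 2.86, a difference of -1.62 (SE 0.18, adjusted p 0.000451), and ARID5A, which stabilises IL6 mRNA, rose by 4.95 and 3.17, a difference of -1.78 (adjusted p 0.0111). MCL1, an anti-apoptotic gene, rose by 3.21 and 1.92, a difference of -1.29 (adjusted p 0.0394), called in 6 of the 16 fits with an array left out (range -1.42 to -1.14, adjusted p 0.0231 to 0.095). The antiproliferative TOB1 rose by 2.36 and 1.37, a difference of -0.99 (adjusted p 0.0151). TOB2 rose by 1.05 in premature arteries against 0.15, a difference of -0.90 (adjusted p 0.0487), called in 2 of those 16 fits (range -0.99 to -0.82, adjusted p 0.0375 to 0.104). CITED2 measured 0.03, -0.65, -0.39 and -0.34 in untreated and -1.97, -2.29, -1.44 and -1.96 in PHE-treated newborn arteries. It fell by 1.58 there, with all treated arrays below all untreated arrays, against a premature effect of 0.06 and overlapping groups, an age difference of -1.64 (adjusted p 0.0143) called for 2 of 2 probes. SNAI2 had effects of 0.53 and -0.39, neither called, and a difference of -0.92 (adjusted p 0.0359), called for 2 of 2 probes and in 7 of those 16 fits (range -1.0 to -0.82, adjusted p 0.0283 to 0.0789).

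CYR61 and CCN2, of the angiogenesis and growth-factor list, were 2 of the 7 among its 32 genes with a negative difference, and neither was called. CYR61 rose by 1.59 in premature arteries against -0.30, with a difference of -1.88 at an adjusted p of 0.122, or 0.045 with pairing and 0.0168 without newborn untreated array 2 (0.0161 to 1 over alternatives). Another CYR61 probe differed by -1.90 without a call (adjusted p 0.125, or 0.0508 with pairing). CCN2 fell by 1.96 in newborn arteries, from 4.58, 3.79, 4.47 and 4.62 to 2.95, 2.09, 2.36 and 2.24, against an effect of -0.05 in premature arteries, and its difference of -1.91 had an adjusted p of 0.0934. C4ORF31 was not well above background in either untreated group and rose at least 5.22-fold in premature and at least 1.87-fold in newborn arteries, an age difference of -1.89 (adjusted p 0.0255), or -1.48 with low values raised, that turned to 0.19 with another background correction.

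Of the 17 probes with a higher signed effect in newborn arteries, 8 fell with a call only in premature arteries, 1 fell at both ages, 4 rose at both ages, 3 rose with a call only in newborn arteries and 1 moved in opposite directions. Their median PHE effect was -0.78 in premature and 0.43 in newborn arteries, and untreated newborn arteries held less of 12 of them and more of 1, and treated newborn arteries less of 3 and more of 5. As for the 76, the selection used a contrast of these levels, and 10.9% of all probes were called lower and 12.8% higher untreated. MARCKSL1, a membrane-bound actin regulator and protein kinase C substrate, measured 1.22, 0.76, 0.68 and 1.00 in untreated and 1.58, 2.02, 1.35 and 1.84 in PHE-treated premature arteries. In newborn arteries it measured -2.62, -2.82, -2.90 and -2.98 untreated and -0.55, -0.40, 0.49 and 0.48 after PHE. Newborn arrays were below premature arrays of the same treatment throughout. MARCKSL1 rose by 0.79 and 2.84, an age difference of 2.05 (SE 0.33, adjusted p 0.0106). The probe A_70_P015971, which has no gene name, had the smallest adjusted p of the 17 (0.00266), with effects of 0.48 and 2.74 and an age difference of 2.26.

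PRDM1, a transcriptional repressor, measured -3.08, -3.46, -3.08 and -2.59 in untreated and -1.66, -1.14, -1.60 and -1.46 in PHE-treated premature arteries, and -4.66, -5.19, -5.35 and -5.14, then -2.10, -1.87, -1.77 and -2.19, in newborn arteries. Newborn arrays were lower in both states. PRDM1 rose by 1.59 and 3.11, an age difference of 1.52 (adjusted p 0.0151), or 1.09 with low values raised, and 1 of 2 probes was called, with 1 of 4 untreated newborn arrays well above background. FZD5, a Wnt receptor, rose by 1.20 and 2.79, a difference of 1.59 (SE 0.26, adjusted p 0.0122), or 1.34 (adjusted p 0.0246) with low values raised (0.000919 to 1 over alternatives). Its untreated newborn arrays, of which 1 of 4 was well above background, lay at -4.85, -5.07, -4.69 and -5.20, below untreated premature arrays at -3.89, -3.90, -3.45 and -4.04. ST3GAL1, a sialyltransferase, rose by 0.95 and 2.63, a difference of 1.68 (adjusted p 0.036), called in 7 of the 16 fits with an array left out (range 1.45 to 1.82, adjusted p 0.0285 to 0.0814). Its untreated newborn arrays, at -2.73, -2.42, -2.63 and -2.51, were all below its untreated premature arrays, at -0.73, -1.47, -1.72 and -1.86, and the treated groups overlapped.

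Some genes of this set were ones PHE lowered in premature arteries. EIF4G1, the scaffold of translation initiation, measured -1.16, -1.32, -1.36 and -1.45 in untreated and -2.96, -3.03, -3.35 and -3.13 in PHE-treated premature arteries, and -1.07, -1.0, -1.23 and -1.17, then -2.07, -2.01, -2.05 and -1.89, in newborn arteries. The untreated groups overlapped, and every treated newborn array was above every treated premature array. EIF4G1 fell by 1.79 and by 0.89, an age difference of 0.91 (SE 0.15, adjusted p 0.0111). MET, the hepatocyte growth factor receptor, fell by 1.00 in premature arteries against -0.12, a difference of 0.87 (adjusted p 0.0349), called in 6 of the 16 fits with an array left out (range 0.79 to 0.95, adjusted p 0.0248 to 0.0843). HIGD2A, a respiratory chain assembly gene, fell by 0.93 in premature arteries against -0.27, a difference of 0.66 (adjusted p 0.0484), called in 2 of those 16 fits (range 0.60 to 0.73, adjusted p 0.0346 to 0.109). CHD2 was well above background on 4 of 4 untreated and 0 of 4 treated premature arrays and on 1 of 4 arrays in each newborn group, and fell at least 1.60-fold in premature arteries. Its age difference was 2.60 (adjusted p 0.00949), but with low values raised it was 0.65 and not called (adjusted p 0.161, and 0.000869 to 1 over alternatives).

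**Figure D3:**
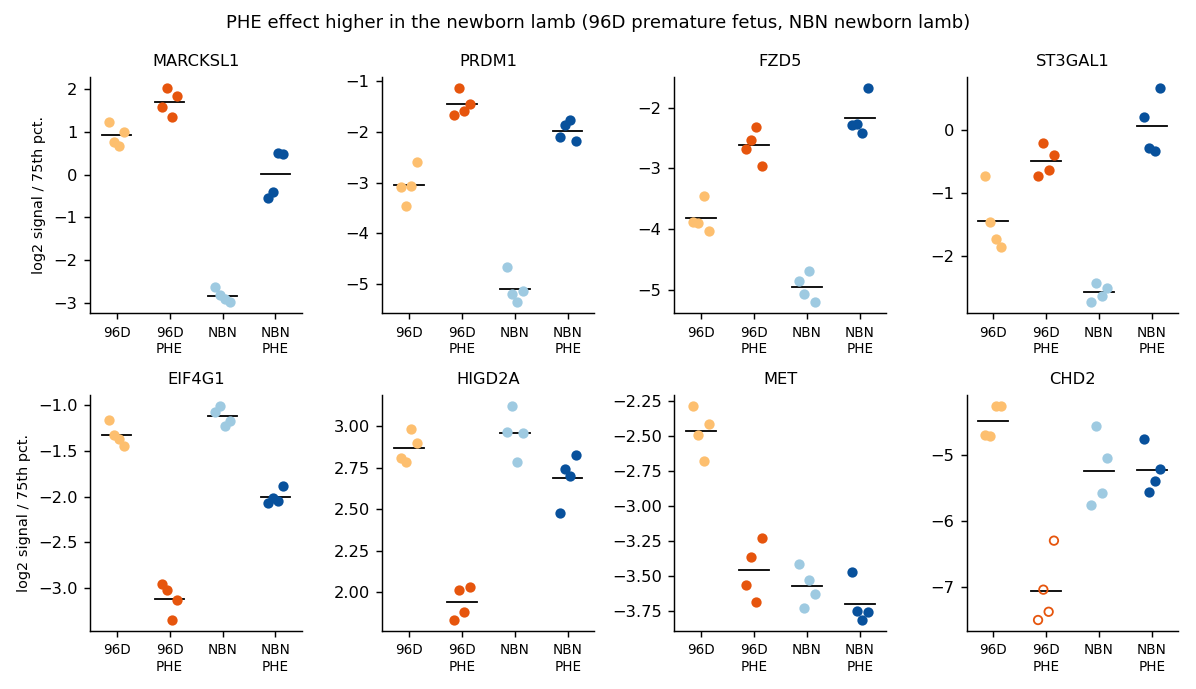
Log2 values of 8 genes with a higher PHE effect in newborn arteries, in each array of the 4 groups, with lines at the group means and open circles for a group without signal well above background. The untreated newborn arrays of MARCKSL1 lie between -2.98 and -2.62 and rise to between -0.55 and 0.49 after PHE.

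Below the threshold, DCN, which encodes the matrix proteoglycan decorin, had effects of -0.47 in premature and 0.77 in newborn arteries, the latter called, and its difference of 1.24 had an adjusted p of 0.056. It was called with pairing (0.047) and without newborn untreated array 3 or 4, with 0.0148 as the lowest adjusted p without an array (0.00834 to 1 over alternatives). Another DCN probe differed by 1.27 without a call (adjusted p 0.13, or 0.0647 with pairing). PFKFB4 rose by 2.19 in newborn arteries against -0.16, with a difference of 2.35 at an adjusted p of 0.0673, or 0.0309 with pairing and 0.0276 without newborn PHE array 2 (0.00621 to 0.615 over alternatives). SLPI, a protease inhibitor chosen after its values were seen, rose by 1.17 in newborn arteries against -0.87, which was called only with pairing (adjusted p 0.0237), with a difference of 2.04 at an adjusted p of 0.0673, or 0.0309 with pairing and 0.0276 at its lowest when newborn untreated array 2 or newborn PHE array 1 was left out (0.00618 to 1 over alternatives). Its other probe was called (adjusted p 0.0221) but was not well above background on any untreated newborn array.

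Age differences without and with PHE were also tested within each state. Among the 76 probes with a lower newborn effect, the untreated arteries alone were called different for 29, the treated arteries alone for 26, both for 10 and neither for 11. Among the 17 with a higher newborn effect these counts were 8, 3, 5 and 1. An uncalled state can still differ by less than the fold threshold: CEBPB was counted under untreated arteries alone, with a treated difference of -0.56 at an adjusted p of 0.00846, and so was PRDM1, with -0.52 at 0.0426. Between untreated arteries 2449 of the 10332 probes differed by age (23.7%, and 29.0% of those with a symbol), and between treated arteries 2523 (24.4%, and 28.6% of those with a symbol). Age and slide cannot be told apart in these comparisons, since each age was hybridised on its own slide. The PHE effects are taken within a slide, but between its rows, as each group had its own row. A row effect that differed between the slides therefore cannot be told apart from the age difference in the PHE effect.

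**Figure D4:**
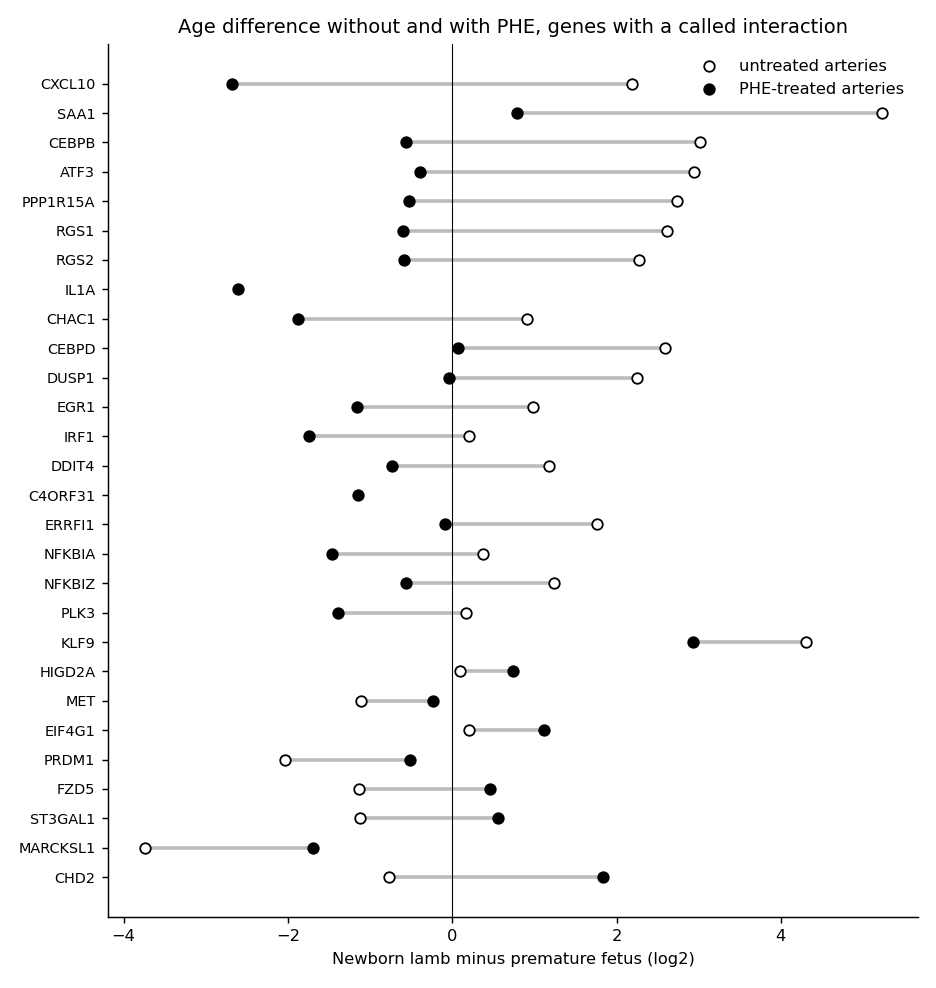
Newborn minus premature log2 difference of each gene in untreated arteries (open symbols) and PHE-treated arteries (filled symbols). C4ORF31 and IL1A have no open symbol, since neither untreated group was well above background. CEBPB lies at 3.01 untreated and -0.56 treated, and IRF1 at 0.20 and -1.74.

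SLCO4A1 rose at least 69.2-fold in premature and at least 44.9-fold in newborn arteries, with an age difference of -0.70 (adjusted p 0.54). PTGS2, the inducible prostaglandin synthase, rose by 5.80 and 5.10, with a difference of -0.70 (adjusted p 0.422), while that of its other probe, not well above background on any untreated array, had the opposite sign, 0.11 (adjusted p 0.941). Among the genes that fell most, NIPAL4 fell by 3.62 and 2.88, BET1L by 3.09 and 2.14, CALY by 2.98 in premature arteries and at least 2.81-fold in newborn arteries, and C9H6ORF203 by 2.80 and 2.43. Their age differences were 0.74, 0.95, 0.58 and 0.38, with adjusted p of 0.72, 0.409, 0.544 and 0.604, and that of CALY became 1.15 with a call (adjusted p 0.0383) with low values raised (0.0383 to 1 over alternatives). TERT fell at least 1.89-fold and at least 2.01-fold, with a difference of 1.20 (adjusted p 0.479) that became -0.09 with low values raised. At the brightest probe of each gene, FXR2 was the named gene with called effects of opposite sign. It rose by 0.62 in premature and fell by 0.60 in newborn arteries, with a difference of -1.22 at an adjusted p of 0.0818. The dimmer SLPI probe also had called effects of opposite sign. It fell by 0.96 in premature arteries and rose in newborn arteries from a level not well above background.

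Among contractile and calcium genes PHE raised 2 of 7 in premature and 1 of 7 in newborn arteries. MYLK measured 4.76, 4.36, 3.98 and 4.86 in untreated premature arteries and 6.21, 6.48, 5.86 and 6.52 in untreated newborn arteries, all newborn arrays being higher, and its PHE effects of -0.56 and -0.15 were not called. MYL6, CNN1 and CALD1 were likewise higher in untreated newborn arteries, by 1.18, 1.85 and 2.58. ATP2A2, the sarcoplasmic calcium pump, rose by 1.69 and 0.92, with a difference of -0.78 at an adjusted p of 0.0952. RHOB rose by 1.05 in premature arteries against 0.53, with a difference of -0.52 at an adjusted p of 0.295, or -1.25 at 0.186 in another probe. Of the 7 genes measured, 0 were called by limma, 2 had an unadjusted p under 0.05 and 1 passed the test with unequal variances, and the median of 0.21 became -0.09 with another background correction.

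Of the 32 angiogenic and growth-factor genes measured, 7 had a negative difference, with 1 called higher and 0 lower by limma (2 and 2 with pairing), 8 at an unadjusted p under 0.05 and 6 by the test with unequal variances, and a median of 0.26 (0.25 with low values raised and 0.62 with another background correction). VEGFA rose by 1.75 and 2.23, PLAU by 1.24 and 2.81, and EPHA2 was raised at both ages, with differences of 0.48, 1.57 and 0.64. Of the 13 hypoxia and glycolysis genes, 0 were called by limma (1 higher with pairing), 2 had an unadjusted p under 0.05 and 2 passed the test with unequal variances, and the median of -0.06 became 0.05 with median scaling and 0.21 with another background correction. HK2 rose by 4.68 in premature arteries and at least 18.6-fold in newborn arteries, with a difference of -0.36 (adjusted p 0.572), while its other probe, well above background on 1 of 4 untreated premature arrays, was called (adjusted p 0.0154) but not with low values raised (0.0602). SLC2A1 rose by 1.31 in premature arteries against 0.23, with a difference of -1.08 at an adjusted p of 0.133, or 0.0264 without premature PHE array 1 (0.0213 to 1 over alternatives). EPAS1 rose by 0.98 in newborn arteries against 0.31, with a difference of 0.67 at an adjusted p of 0.366.

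Prostaglandin genes and nuclear receptors of the PPAR group showed no called difference. Of the 4 prostaglandin genes and the 5 PPAR, LXR and RXR genes measured, 0 and 0 were called by limma, 0 and 0 had an unadjusted p under 0.05 and 0 and 0 passed the test with unequal variances. The prostaglandin median of 0.06 became -0.05 with another background correction, and the PPAR median of -0.01 (-0.06 with low values raised) became 0.09 with median scaling and 0.54 with another background correction. PTGS1 fell by 0.89 and 0.75, PPARG fell by 0.92 and 0.98, PTGDS, PTGER3, PPARA and RXRB were called at neither age, and the age differences of these 6 genes were 0.15, -0.06, 0.21, -0.03, -0.01 and -0.31.

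Of the 10 mRNA decay and glucocorticoid-induced genes measured, 0 were called by limma (1 lower with pairing), 5 had an unadjusted p under 0.05 and 4 passed the test with unequal variances, with a median of 0.06 (0.16 with median scaling and 0.65 with another background correction). ZFP36, which degrades cytokine mRNA, rose by 3.15 and 1.77, with a difference of -1.39 (adjusted p 0.109), while its other probe rose by 6.47 and 2.96, a difference of -3.51 (adjusted p 0.0122). HSD11B1 rose by 1.00 in newborn arteries against -0.12, with a difference of 1.12 at an adjusted p of 0.295. Of the 11 matrix genes measured, 0 were called by limma (1 higher with pairing, 1 with median scaling and 1 with low values raised), 2 had an unadjusted p under 0.05 and 2 passed the test with unequal variances, with a median of -0.12 (-0.02 with median scaling and -0.05 with another background correction). TNC rose by 1.62 in premature arteries against 0.72, which was called only with pairing (adjusted p 0.0171), with a difference of -0.91 at an adjusted p of 0.362, TIMP1 rose by 1.09 in newborn arteries against 0.56, with a difference of 0.53 at an adjusted p of 0.235, and BGN was called at neither age.

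**Figure D5:**
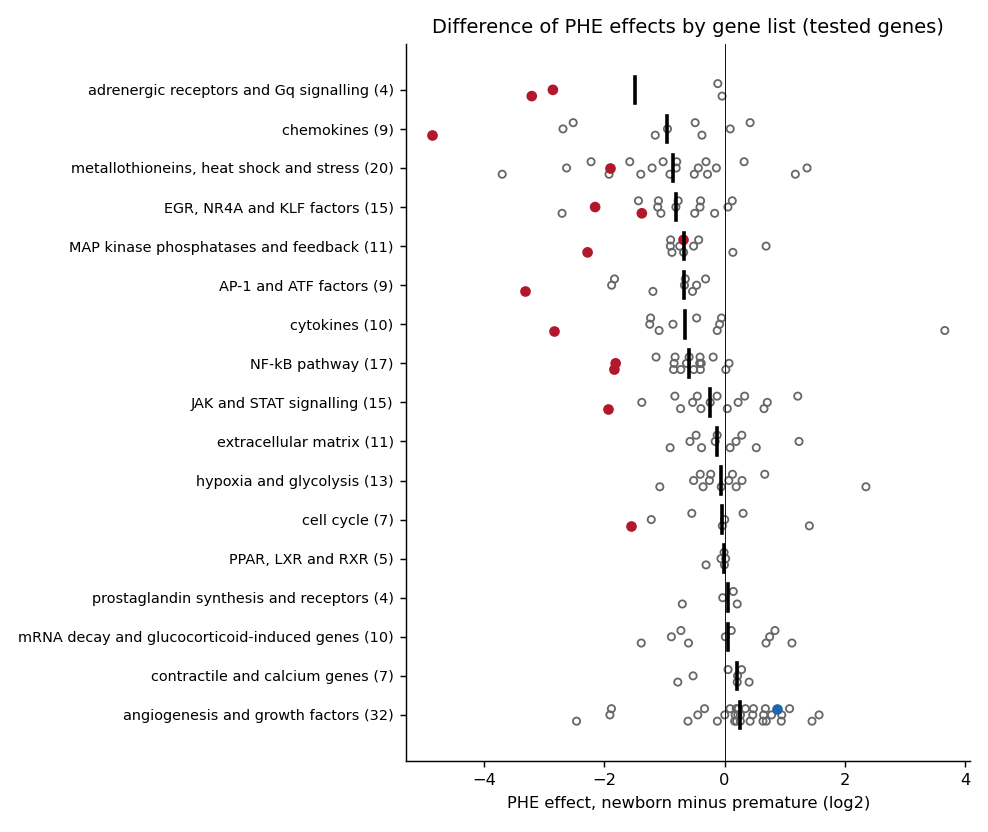
Age difference in the PHE effect, in log2, for each measured gene of 17 lists, with a bar at each list's median and called genes filled, red for a lower and blue for a higher newborn effect. The medians run from -1.48 for Gq signalling to 0.26 for angiogenesis and growth factors, beside 0.00 for all probes, and these became -0.37, 0.62 and 0.19 with another background correction. The Gq list had 4 measured genes, RGS1, RGS2, RGS3 and RCAN1.

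Cell-type markers were compared because segments of the artery wall hold several cell types, and in whole-tissue RNA fewer cells of a type and less RNA per cell cannot be told apart. The mean of 3 smooth muscle markers was 2.32 in untreated and 1.98 in PHE-treated premature arteries, and 4.39 and 4.30 in newborn arteries (3 of 3 higher in untreated newborn arteries). In the same order of groups, 3 endothelial markers averaged -2.45, -2.46, -2.80 and -3.11, 5 leukocyte markers -1.82, -1.36, -1.89 and -1.30, 2 haemoglobin genes 3.63, 2.29, 2.20 and 1.73, 4 fibroblast markers 2.05, 3.05, 1.29 and 2.38, and 2 fat markers -4.91, -5.43, -2.22 and -2.70. The mean of -2.22 takes FABP4 over 3 arrays, as its value on the other was missing. Of the fat markers FABP4 was higher in untreated newborn arteries by 5.45, and PLIN1 was not. The 4 neural and glial markers averaged -2.34, -2.77, -3.40 and -2.70, and the age differences of GFAP, MBP and S100B, 0.85, 1.74 and 0.83, were not called. None of these 7 marker lists held a called age difference by limma without pairing and with the scaling used here, while median scaling and low values raised each gave 1 fibroblast call, and with pairing 1 neural and glial gene and the fibroblast gene DCN were called higher, with 3 neural and glial genes, 1 haemoglobin gene and 1 fibroblast gene at an unadjusted p under 0.05 and likewise 3, 1 and 1 by the test with unequal variances. The part of these cell types in the age difference was not tested.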

How the data were processed

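RNA of MCA segments was hybridised to 1-colour Agilent sheep arrays of 15744 spots, 536 of them controls. The authors deposited scanner files read with Feature Extraction 9.5.3.1, whose processed intensity per spot is background-subtracted and detrended within an array and not scaled between arrays. The deposited value matrix equals these intensities in 32 of 32 columns, within a relative tolerance of 1e-06. Each intensity was divided by its array's 75th percentile over non-control spots (639 to 985) and log2 transformed. Spots marked as outliers were set missing, no spot of the 16 arrays was saturated, and spots of a probe were averaged over 15008 probes. A probe was tested where any of the 4 groups had it well above background on each of its 4 arrays, which left 10332 probes.

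limma 3.58.1 in R 4.3.3 fitted 4 group means, with two-sided moderated tests adjusted by Benjamini-Hochberg. A change was called at an adjusted p under 0.05 with at least a 1.5-fold size. The fit was tested on simulated data. Tables and figures were made with Python 3.11.15, numpy 2.4.6, pandas 2.3.3 and matplotlib 3.10.9. For the age difference, the test with unequal variances used the within-number effects, so it too takes same-numbered arrays as pairs. For the other comparisons it compared the groups without pairs. It required the same fold and is given without adjustment unless adjustment is stated. Alternatives were normexp background correction (offset 50), quantile and median scaling, low values raised to an array's floor, which is its weakest signal still marked well above background, other filters, a single probe per gene, all 32 arrays, replicate blocks, array weights, other thresholds and tests, the deposited matrix, and each array left out in turn. Ranges of adjusted p given over alternatives cover limma fits only. They leave out the test with unequal variances and the fits with an array left out.

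Symbols came from RefSeq accessions (520 probes, assembly ARS-UI_Ramb_v3.0), the array file (676) or a match to the group means in the study's own list of altered genes (1871). That match was made within a relative tolerance of 2e-05 for the near-term, newborn and adult lists. The premature list prints rounded means, so its means were matched to that rounding together with their ratio. Of its 1269 genes, 1199 matched a single probe and 67 matched several, and only single matches gave a name. In all, 11941 probes had no symbol. The study's list names only genes altered by PHE, so named genes hold more PHE responders than all probes do. A gene with several probes is given by the brightest on average over the 16 arrays.

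Members and lists were chosen with earlier results of these data known. Named were up to 12 genes with the largest called age difference in each direction, up to 6 more in each direction among dimmer genes, the probe with the smallest adjusted p in each direction, up to 4 genes and every called gene of each of 17 lists, genes with called effects of opposite sign, and the 5 largest rises and 5 largest falls. A further 13 were chosen after their values were seen and are marked as such. Other list members, among them FOS, CREM, MYC, KLF4 and ICAM1, are quoted outside these rules. They were picked by no stated rule and have no range over alternatives. Results of some genes met by these rules are not reported. The 7 marker lists were reported as levels.

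Same-numbered arrays of an age were treated as pairs in the paired fit. Their deviations from the group means correlated at 0.411 to 0.517 in premature and 0.493 to 0.538 in newborn arteries, against -0.364 to 0.0135 between other numbers. The series design states that segments came from each of 4 animals, but the labels do not say that a number marks an animal, and same-numbered arrays also share a slide column. The untreated and PHE-treated arrays of an age lay in different slide rows, so row and treatment cannot be told apart. The sources do not say whether untreated segments spent the same time in the bath.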

Additional observations from a re-analysis of the deposited data

Results flagged for a closer look

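The PHE effect differed between the ages, by limma's test of the difference itself, for 41 named features, of which 1 is a probe without a gene symbol. On the log2 scale, newborn minus premature, the differences were -4.87 for CXCL10, -4.44 for SAA1, -3.58 for CEBPB, -3.33 for ATF3, -3.26 for PPP1R15A, -3.21 for RGS1, -2.86 for RGS2, -2.84 for IL1A, -2.79 for CHAC1, -2.52 for CEBPD, -2.28 for DUSP1 and -2.15 for EGR1. They were -1.94 for IRF1, -1.91 for DDIT4, -1.89 for C4ORF31, -1.85 for ERRFI1, -1.83 for NFKBIA, -1.81 for NFKBIZ, -1.78 for ARID5A, -1.64 for CITED2, -1.62 for IFRD1, -1.58 for DNAJB5, -1.56 for PLK3, -1.41 for CEBPG, -1.38 for KLF9 and -1.29 for MCL1. Smaller negative differences were -0.99 for TOB1, -0.97 for DNAJB6, -0.92 for SNAI2, -0.90 for TOB2, -0.89 for HERPUD1 and -0.84 for MAPKAPK2. Positive differences were 0.66 for HIGD2A, 0.87 for MET, 0.91 for EIF4G1, 1.52 for PRDM1, 1.59 for FZD5, 1.68 for ST3GAL1, 2.05 for MARCKSL1, 2.26 for the unnamed probe A_70_P015971 and 2.60 for CHD2. With low values raised to each array's floor, those of RGS1 and CHD2 became -1.95 and 0.65 and were not called. That of PPP1R15A, not well above background on any untreated premature array, became -2.35 with its call kept (adjusted p 0.0255).

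A single array lay far from the other 3 of its group in 11 of 172 groups examined, by Dixon's criterion for 4 values, which chance meets in about 1 of 20 groups. Premature untreated array 3 was high for SAA1 at -1.39 and low for EGR1 at -2.89, premature untreated array 4 was high for CEBPB at -4.70, and premature untreated array 2 was high for DNAJB6 at 0.65. Premature PHE array 2 was low for DUSP1 at 2.11, and premature PHE array 1 was low for ERRFI1 at 4.89. Newborn PHE array 1 was low for IRF1 at 0.47. Newborn untreated array 4 was high for DNAJB5 at 0.94 and for DNAJB6 at 1.24, newborn PHE array 4 was high for DNAJB5 at 0.48, and newborn untreated array 3 was high for MCL1 at 0.89. The causes were not tested.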

How the results depend on the processing

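The count of 93 called age differences moved by more than 1.5 times to 9 with normexp background correction, 53 with median scaling (35.8% higher against 18.3%), 49 without a filter, 2 with all 32 arrays, 361 with the replicate block, 595 with a random replicate block, 182 with array weights, 826 with unadjusted p, and 774 unadjusted and 0 adjusted by the test with unequal variances. With an array left out it ranged from 43 to 84, and under the other alternatives it stayed within 1.5 times. Counts for the PHE effect moved to 1608 in premature and 963 in newborn arteries with normexp, 1860 and 1174 with all 32 arrays, and 4785 and 3448 without a fold threshold, and the newborn count to 1288 with adjusted unequal-variance tests. With an array left out they ranged from 2800 to 3158 and from 1915 to 2384. Counts between ages moved to 1258 in untreated and 1023 in treated arteries with normexp, 1181 and 1154 with all 32 arrays, and 3802 and 3941 without a fold threshold, and the untreated count to 1494 with adjusted unequal-variance tests. With an array left out they ranged from 2252 to 2485 and from 2260 to 2569. Median scaling shifted the median of all probes by 0.10 for the age difference and by -0.12 for the premature PHE effect, whose calls became 36.9% upward against 50.7%. Over 16 settings besides omitted arrays, the 41 called genes (1 of them a probe without a symbol) kept direction and call in 497 values, lost the call in 147 and reversed in 2, and the other 60 kept both in 780, gained a call in 133 and reversed in 28. The call was lost for 34 of the 41 with normexp, with 2 more reversed, so that RGS2, CEBPD, ERRFI1, NFKBIA and A_70_P015971 kept theirs. It was lost for 40 with all 32 arrays (CEBPD kept it), 41 with adjusted unequal-variance tests, 14 without a filter, 11 with median scaling, 4 with a single probe per gene (CHAC1, DDIT4, HIGD2A and TOB2), 2 with low values raised (RGS1 and CHD2), 1 with quantile scaling (MAPKAPK2) and 0 with the replicate block, which gave a call to 14 of the 60 and changed no other of their age-difference calls, while besides the PHE effects given as called only with pairing it called the premature effect of FABP4 (-0.63, adjusted p 0.0181). With an array left out, 25 of the 41 held the call in all 16 fits. Normexp reversed C4ORF31 to 0.19, KLF9 to 0.24, FXR2 to 0.27, MAP3K14 to 0.66, IL6ST to 0.15, NFKB2 to 0.10, SLCO4A1 to 0.18, HK2 to 0.030, RXRB to 0.11, PPARG to 0.64, RGS3 to 0.055, PTGER3 to 0.81, PPARA to 0.91, CXCL8 to -0.16, PTGS1 to -0.022, PTGDS to -0.078 and MYL6 to -0.087. Median scaling reversed PPARG to 0.043, RGS3 to 0.061, PTGER3 to 0.072 and PPARA to 0.095, quantile scaling PTGER3 to 0.015 and FABP4 to -0.094, low values raised PPARA to 0.15, FABP4 to -0.43 and TERT to -0.095, array weights RGS3 to 0.15, PPARA to 0.017 and CXCL8 to -0.065, and the deposited matrix FABP4 to -0.34. With an array left out the age difference crossed 0 for RCAN1 (-0.36 to 0.020), PPARG (-0.26 to 0.29), RGS3 (-0.19 to 0.14), PTGER3 (-0.29 to 0.20), PPARA (-0.14 to 0.11), FABP4 (-0.37 to 0.51) and CXCL8 (-0.17 to 0.46). The cause was not tested. A slide block was not run, because each age has its own slide and such a block cannot change a within-age effect. Signal over background limits folds of genes absent before PHE, given as bounds.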
